A study of Arabidopsis thaliana with 47 samples.

Results

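SWEET2 (AT3G14770, array probe set ATH1.256548_at) is the member of the Arabidopsis SWEET family whose transcript is followed here. It was chosen with its levels across the 12 groups known, so its values are a description and carry no test. It is 1 of 22746 probe sets tested and 1 of the 16 SWEET genes that a probe set names. The data are 47 ATH1 arrays of Arabidopsis thaliana Col-0 root protoplasts, which are cells freed from their walls, prepared from seedlings aged 10 days by a digestion lasting 4 h. Cells were transfected for 25 min with a plasmid, held overnight, treated, and picked by the red fluorescent protein (RFP) that the plasmid encodes. RNA was then amplified and labelled with biotin. The question behind the design was which genes respond to entry of the transcription factor bZIP1 into the nucleus under a nitrogen signal.

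Groups are defined by vector, cycloheximide, nitrogen and dexamethasone. The vector was pBeaconRFP_GR::bZIP1, which encodes bZIP1 fused to the glucocorticoid receptor domain (GR), or the pBeaconRFP_GR empty vector. Nitrogen (N) was a solution of 20 mM KNO3 and 20 mM NH4NO3 given for 2 h, and cells without N had 20 mM KCl. Cycloheximide (CHX) blocks protein synthesis, and cells without it had solvent. Dexamethasone (DEX) at 10 µM in ethanol lets the GR fusion enter the nucleus, and cells without DEX had ethanol alone. The 24 arrays of bZIP1 with CHX hold 6 for each of N with DEX, N without DEX, DEX without N, and neither. The labels split these 6 into Biorep 1 and Biorep 2, each with 3 treatment replicates. Each Biorep is called a preparation below, which is a reading of that label. The 12 arrays of bZIP1 without CHX hold 3 for each of the same 4 treatments. The 11 arrays of the empty vector, all with CHX, hold 3 for each treatment except DEX without N, which has 2. Each of these 3 sets of arrays is called an arm below.

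SWEET proteins are sugar uniporters that let sugars pass a membrane along their gradient, without the proton coupling of other plant sugar carriers. SWEET2 sits in the membrane of the vacuole, the tonoplast, and is known for its expression in roots, where it limits the loss of sugar to the soil and the growth of the root pathogen Pythium. bZIP1 belongs to group S1 of the bZIP factors, which act in the response of plants to low energy and to sugar.

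The system limits what a level means. bZIP1 was overexpressed from a plasmid for a short time in isolated cells, and nothing states that treatment replicates came from separate cultures, so each error covers only how far these arrays differ. Each array measured RNA of many sorted cells, so fewer cells of a type and less RNA per cell cannot be told apart. Of 9 root cell markers listed, 1 was named on the array, the cortex marker AT1G62500, and it was within 0.1 log2 of the lowest value on all 47 arrays. None of 8 green tissue markers was named. The level of bZIP1 itself was not analysed here. Values are on a log2 scale, with array medians of 2.92 to 3.18. The lowest value differed slightly between arms, 2.298 for bZIP1 with CHX, 2.303 for bZIP1 without CHX and 2.287 for the empty vector. Levels were for this reason compared within an arm, and only effects were set side by side between arms.

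SWEET2 lay well above the lowest value on every array, between 8.15 and 11.19. In the bZIP1 arm with CHX, its mean level was 1.12 to 1.43 log2 units higher in each DEX group than in the matching group without DEX. In the bZIP1 arm without CHX the gap was 0.66 to 0.71, and in the empty vector it was 0.37 with N and 0.13 without N, with ranges that overlapped or met. Addition of N left smaller gaps, all of them overlapping between groups.

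Biorep 1 of bZIP1 with CHX had the higher SWEET2 levels of the pair of preparations. With N, its treatment replicates 1, 2 and 3 read 11.19, 11.06 and 11.09 with DEX, against 10.23, 9.93 and 10.11 without DEX. Without N, they read 11.13, 10.98 and 11.18 with DEX, against 9.91, 9.96 and 9.79 without DEX. The DEX and no-DEX arrays of this preparation did not overlap in either N condition, and the lowest DEX array stood 0.75 above the highest array without DEX.

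Biorep 2 ran at lower levels. With N, it read 9.98, 9.93 and 10.07 with DEX, against 8.78, 8.88 and 8.68 without DEX. Without N, it read 10.22, 9.80 and 10.09 with DEX, against 8.76, 8.15 and 8.25 without DEX. Again the DEX and no-DEX arrays did not overlap, by a margin of 0.92. The spread was widest in the group with neither N nor DEX, where replicate 1 lay above replicates 2 and 3.

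Without CHX, bZIP1 cells given N read 9.34, 8.96 and 9.64 with DEX, against 8.40, 8.72 and 8.69 without DEX. Cells without N read 9.27, 9.10 and 9.37 with DEX, against 8.45, 8.58 and 8.72 without DEX. All 6 DEX arrays lay above all 6 arrays without DEX in this arm. The lowest DEX array, replicate 2 with N, stood 0.24 above the highest array without DEX.

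Empty-vector cells given N read 9.90, 10.32 and 10.34 with DEX, against 9.98, 9.51 and 9.98 without DEX. Cells without N read 9.95 and 10.05 with DEX, in replicates 1 and 3, against 9.95, 9.89 and 9.78 without DEX. Here the DEX and no-DEX arrays overlapped with N and met at an equal value, 9.95, without N. The low array with N and no DEX was replicate 2.

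**Figure D1:**
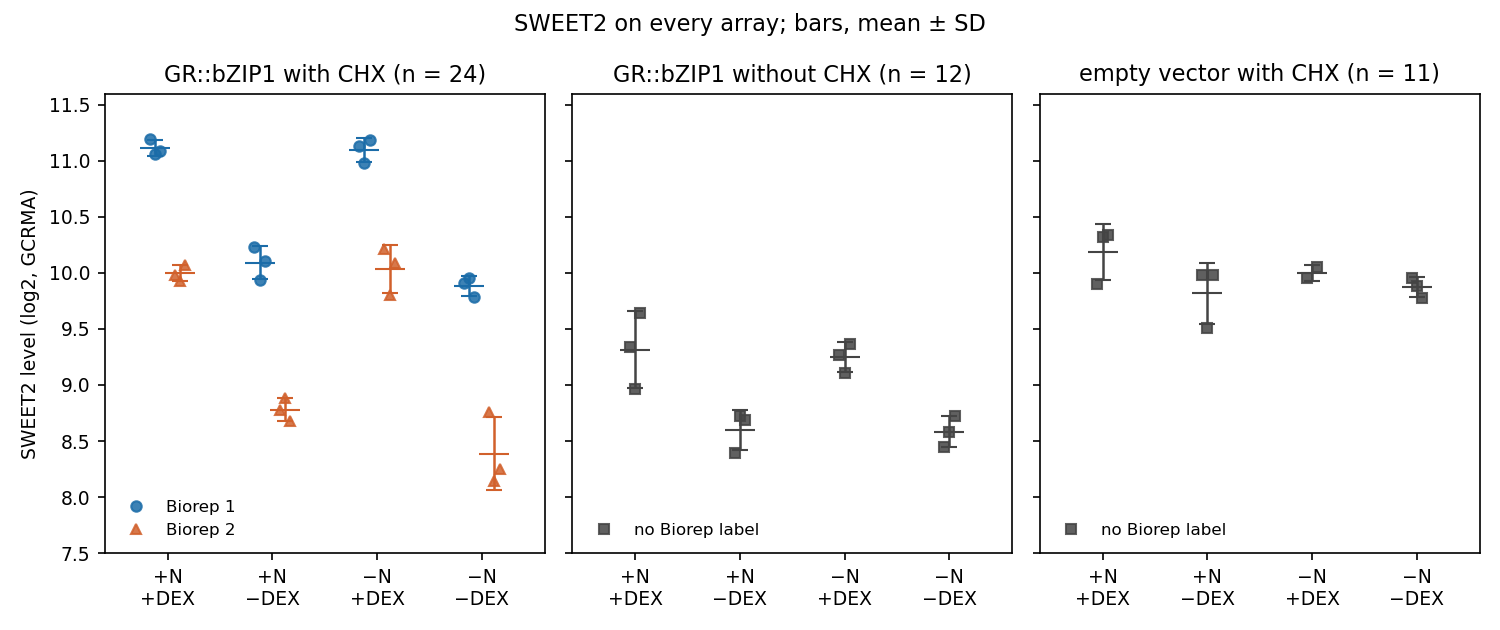
SWEET2 level (log2, GCRMA) on each of the 47 arrays, by arm (panels) and by N and DEX (x axis). Points are arrays and bars are mean ± SD of the 3 arrays of a Biorep in bZIP1 with CHX, and of the 2 or 3 arrays of a group elsewhere. Within each Biorep, and in bZIP1 without CHX, every DEX array lies above every array without DEX, while the empty-vector groups overlap or meet.

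Group means put the levels of each arm in order. In bZIP1 with CHX, DEX without N (10.57 ± 0.60, SD, n = 6) and N with DEX (10.56 ± 0.62) came first and differed by 0.01, far less than their spread. N without DEX (9.44 ± 0.73) and neither treatment (9.14 ± 0.85) followed. These SDs hold the gap between preparations, and over the 6 arrays each the ranges of DEX and no-DEX groups overlapped. Within Biorep 1 the means for DEX without N, N with DEX, N without DEX and neither were 11.10 ± 0.11, 11.11 ± 0.07, 10.09 ± 0.15 and 9.88 ± 0.09 (SD, n = 3 each). For the same groups within Biorep 2 they were 10.04 ± 0.21, 10.00 ± 0.07, 8.78 ± 0.10 and 8.39 ± 0.33. In both preparations the 2 DEX groups overlapped each other, as did the 2 groups without DEX.

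In bZIP1 without CHX the order was N with DEX (9.32 ± 0.34, SD, n = 3), DEX without N (9.25 ± 0.13), N without DEX (8.60 ± 0.18) and neither (8.58 ± 0.14). The first pair and the last pair each overlapped. In the empty vector the order was N with DEX (10.19 ± 0.25, n = 3), DEX without N (10.00 ± 0.07, n = 2), neither (9.87 ± 0.09, n = 3) and N without DEX (9.82 ± 0.27, n = 3). The ranges of neighbouring groups in this order overlapped, or met at an equal value for DEX without N and neither.

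SWEET2 also differed between preparations. Biorep 2 averaged 9.30 and Biorep 1 averaged 10.55 over 12 arrays each, a difference of -1.25 log2 units. By treatment, Biorep 2 minus Biorep 1 was -1.12 with N and DEX, -1.31 with N alone, -1.06 with DEX alone and -1.50 with neither. A larger gap in either direction was measured for 397 of the 22746 probe sets (1.75%). Preparation was therefore kept as a covariate in this arm. In the other arms the labels name no Biorep, so vector and CHX cannot be told apart from preparation between arms.

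The DEX effect is the level with DEX minus that without, averaged over both N conditions. SWEET2 was higher with DEX by 1.28 ± 0.07 (SE) in bZIP1 with CHX, which is 2.42-fold. It was higher by 0.69 ± 0.12 in bZIP1 without CHX (1.61-fold) and by 0.25 ± 0.12 in the empty vector (1.19-fold). Of all probe sets, 79, 186 and 1042 had a more positive DEX effect in these arms, in that order. With each arm tested across all probe sets by limma at an adjusted p of 0.05, the DEX effect was called for 6.16%, 4.29% and 1.05% of them. These shares also depend on the number of arrays, which differs between arms. In bZIP1 with CHX 1401 probe sets were called, but 706 in Biorep 1 alone and 384 in Biorep 2 alone, against 975 in bZIP1 without CHX.

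The DEX effect was seen in both preparations. Biorep 2 alone gave 1.43 and Biorep 1 alone gave 1.12. By N condition and preparation, the difference of group means without N was 1.65 in Biorep 2 and 1.21 in Biorep 1. With N it was 1.22 in Biorep 2 and 1.02 in Biorep 1.

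Split by N, the DEX difference in bZIP1 with CHX was 1.12 with N (2.17-fold) and 1.43 without N (2.70-fold). The N by DEX interaction, the DEX difference in cells given N less that in cells without it, was -0.31 ± 0.14 (SE). In bZIP1 without CHX the DEX difference was 0.71 with N and 0.66 without N, an interaction of 0.05 ± 0.24. In the empty vector it was 0.37 with N and 0.13 without N, an interaction of 0.24 ± 0.24. The empty-vector value rests on replicate 2, and it was 0.0062 without that replicate. Across all probe sets limma called the interaction for 0% in both bZIP1 arms, with 554 (CHX) and 611 (no CHX) at an unadjusted p under 0.05, and for 0.0352% in the empty vector.

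The N effect on SWEET2 was small in all arms. It was 0.14 ± 0.07 (SE) in bZIP1 with CHX, 0.04 ± 0.12 in bZIP1 without CHX and 0.07 ± 0.12 in the empty vector. In bZIP1 with CHX the level was 0.30 higher with N where DEX was absent, and it differed by -0.01 where DEX was present. The share of all probe sets called for N was 2.02%, 0.0879% and 0.163% in the 3 arms. The arms differ in their number of arrays, so these shares cannot be set against each other. Biorep 1 and Biorep 2 of bZIP1 with CHX, each fitted alone, gave 29 and 24 called probe sets for N. The whole of that arm gave 459, and bZIP1 without CHX gave 20.

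Setting the arms' DEX effects against each other in a single fit of all 47 arrays gave a difference of 1.03 ± 0.14 (SE) for bZIP1 minus empty vector, both with CHX. For bZIP1 with CHX minus bZIP1 without CHX it was 0.59 ± 0.14. Both differences use the same arrays of bZIP1 with CHX, so they are not independent. After quantile normalization on top of the deposited values, the second difference dropped to 0.34. Over all probe sets, 4.53% and 4.46% were called for these differences.

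Most of the SWEET family stayed at the bottom of the scale in these cells. Of the 16 named members, 9 were within 0.1 log2 of the lowest value on all 47 arrays and 11 were so on more than 40. The 9 are SWEET3 of clade I, SWEET4, AtVEX1 (SWEET5), SWEET6 and SWEET7 of clade II, and SWEET9, SWEET10, SWEET11 and SWEET14 of clade III. Clade III carries mainly sucrose and includes SWEET9 of nectaries and the phloem transporter SWEET11. SWEET13 and SAG29 (SWEET15), a gene of senescing tissue, were at the lowest value on 46 and 45 arrays. SWEET2 and SWEET17 never were. SWEET12 is not analysed here.

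Among the other SWEET genes none was called for DEX in bZIP1 with CHX. In a list this short that is near the share of all probe sets, and SWEET2 carries no test, so the count does not set SWEET2 apart. By limma, 0 of the 15 passed an adjusted p of 0.05 in either direction, with 3 at an unadjusted p under 0.05, beside 3.19% of all probe sets called higher and 2.97% called lower. The list's median DEX effect was 0.00, as was that of all probe sets, and its range ran from -0.89 to 0.36. In bZIP1 without CHX 1 of 15 rose and 0 fell, beside 1.84% called higher and 2.45% called lower, with 2 at an unadjusted p under 0.05. In the empty vector 0 of 15 passed, with 0 at an unadjusted p under 0.05, beside 1.05% called. A gene at the lowest value in all arrays cannot be called and has a DEX effect near 0. This holds for 9 of the 15, which limits these counts and sets the list's median near 0 whatever the other members do.

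SWEET16 and SWEET17 share the tonoplast with SWEET2, and fructose is among the sugars they carry. SWEET17 in bZIP1 without CHX read 6.14, 6.29 and 6.15 with N and DEX, against 5.88, 5.81 and 5.80 with N alone. Without N it read 6.09, 6.30 and 6.37 with DEX, against 5.52, 6.002 and 5.90 without DEX. The groups did not overlap in either N condition. SWEET17 rose with DEX in this arm by 0.41 ± 0.09 (SE, limma adjusted p = 0.0373), a call lost without replicate 1, 2 or 3, over a range of adjusted p of 0.00917 to 0.386 across 6 alternatives. In the other arms its DEX effect was of like size, 0.35 ± 0.12 with CHX (adjusted p = 0.0903) and 0.48 ± 0.21 in the empty vector (adjusted p = 0.685), and neither passed. The difference between bZIP1 and the empty vector, -0.13 ± 0.20, did not pass either.

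SWEET16 spanned a wide range of levels. In bZIP1 with CHX it averaged 6.60 ± 0.57 (SD, n = 6) with N and DEX, 6.41 ± 0.47 with N alone, 7.34 ± 0.51 with DEX alone and 6.81 ± 0.55 with neither. Without CHX every array lay between 2.30 and 2.73, near the lowest value, and in the empty vector every array lay between 7.36 and 8.02. Its DEX effect in bZIP1 with CHX was 0.36 ± 0.13 (SE, limma adjusted p = 0.127). SWEET16 fell with N there by 0.56 on the log2 scale (SE 0.13, adjusted p = 0.0212), the single SWEET gene of 15 called for N, beside 1.16% of all probe sets called lower and 0.862% called higher. That call was lost in 6 of 10 alternatives, with an adjusted p of 0.00495 to 0.821, among them each Biorep alone and the fits without replicate 2 or 3. The N effect of SWEET2 in the same arm was small, 0.14 ± 0.07 (SE), at 0.30 without DEX and -0.01 with DEX, with ranges that overlapped.

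SWEET1 and SWEET8 were the remaining members above the lowest value. SWEET1, a glucose transporter of the plasma membrane in the same clade as SWEET2, had a DEX effect of 0.04 ± 0.16 (SE) in bZIP1 with CHX and -0.09 ± 0.14 in the empty vector. It was at the lowest value on all 12 arrays of bZIP1 without CHX. SWEET8, known for its role in pollen, had a DEX effect of -0.89 ± 0.27 in bZIP1 with CHX (limma adjusted p = 0.0606). With neither treatment in that arm it read 3.12, 3.49 and 3.24 in Biorep 2, against 6.37, 5.80 and 7.04 in Biorep 1.

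**Figure D2:**
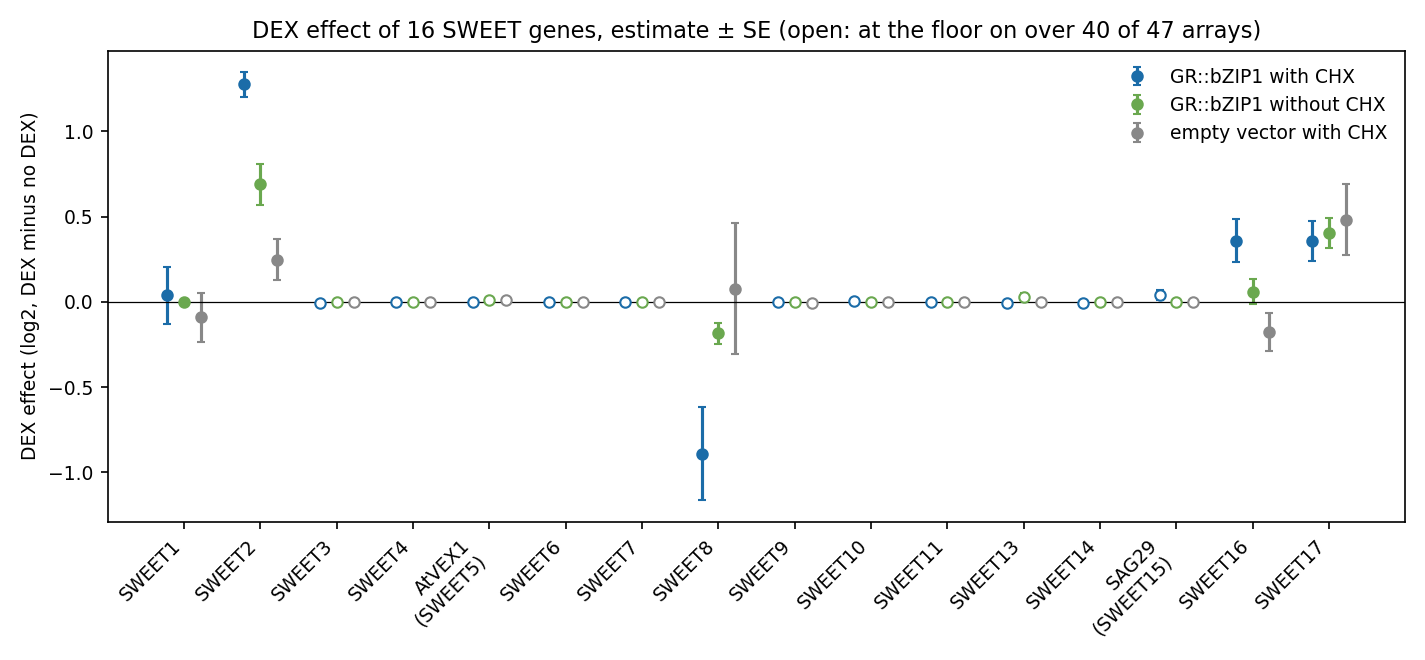
DEX effect (log2, DEX minus no DEX) of the 16 named SWEET genes in the 3 arms. Points are limma estimates and bars are ± SE, and open points mark genes within 0.1 log2 of the lowest value on over 40 of 47 arrays. SWEET2 stands at 1.28, 0.69 and 0.25, SWEET17 lies between 0.35 and 0.48 in all arms, and SWEET8 is at -0.89 in bZIP1 with CHX.

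The genes next to SWEET2 on its chromosome were then followed, in the gene order of the TAIR10.1 annotation. AT3G14760, the gene immediately before it, and AT3G14750, the one before that, both rose with DEX in bZIP1 with CHX. On the other side, AT3G14780 and the pseudogene AT3G14800, 2 and 4 genes after SWEET2, had DEX effects of 0.24 ± 0.08 (SE) and -0.08 ± 0.11 that did not pass. So 2 of the 4 named neighbours were called higher, beside 3.19% of all probe sets, and their median DEX effect was 0.47, against 0.00 for all probe sets. All 4 lay above the lowest value on every array of this arm, whereas many of all probe sets did not. Among the 10955 probe sets left by a filter on low values, 813 were called higher.

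AT3G14760 in Biorep 1 read 5.82, 6.64 and 7.08 with N and DEX, against 4.46, 4.56 and 5.21 with N alone. Without N it read 7.04, 7.71 and 6.89 with DEX, against 5.20, 5.41 and 5.32 without DEX. The groups did not overlap in this preparation. In Biorep 2 it read 5.27, 5.04 and 4.82 with N and DEX, against 3.96, 3.83 and 4.46 with N alone. Without N it read 5.44, 5.87 and 6.43 with DEX, against 3.83, 4.25 and 4.98 without DEX. Here too the DEX arrays lay above those without DEX in each N condition. The DEX effect was 1.55 ± 0.18 (SE, limma adjusted p = 3.93e-06), with an adjusted p of 0.0767 when the replicates of each Biorep were averaged, and between 9.59e-08 and 0.0461 in the other 9 alternatives.

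The other arms gave lower DEX effects for AT3G14760. In the empty vector it averaged 5.99 ± 0.17 (SD, n = 3) with N and DEX against 5.79 ± 0.57 with N alone, and 6.64 ± 0.37 (n = 2) with DEX alone against 6.47 ± 0.11 (n = 3) with neither. Its DEX effect was 0.19 ± 0.21 (SE, limma adjusted p = 0.94) in that arm. The difference between bZIP1 and the empty vector was 1.36 ± 0.27 (adjusted p = 0.000976), lost without replicate 2 and without the Biorep covariate, with an adjusted p of 0.000242 to 0.127 over 10 alternatives. Without CHX it was at the lowest value on 11 of 12 arrays and its DEX effect was 0.10 ± 0.09. SWEET2, by contrast, was 1.61-fold higher with DEX in that arm. The difference of AT3G14760 between the bZIP1 arms was 1.45 ± 0.26 (adjusted p = 0.000325), lost without replicate 2 at an adjusted p of 0.0987, and it rests on levels at the bottom of the scale in 1 arm.

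AT3G14750 averaged 5.47 ± 0.41 (SD, n = 6) with N and DEX in bZIP1 with CHX, against 4.84 ± 0.37 with N alone. With DEX alone it averaged 5.73 ± 0.43, against 4.98 ± 0.28 with neither. Its DEX effect was 0.69 ± 0.12 (SE, limma adjusted p = 0.000917). The call was lost in 3 of 10 alternatives, which were Biorep 2 alone, averaged replicates and the fit without replicate 2, with an adjusted p of 0.00014 to 0.297. Its effects were 0.03 ± 0.14 in bZIP1 without CHX and 0.20 ± 0.16 in the empty vector, and its difference between bZIP1 and the empty vector, 0.49 ± 0.21, did not pass (adjusted p = 0.284).

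**Figure D3:**
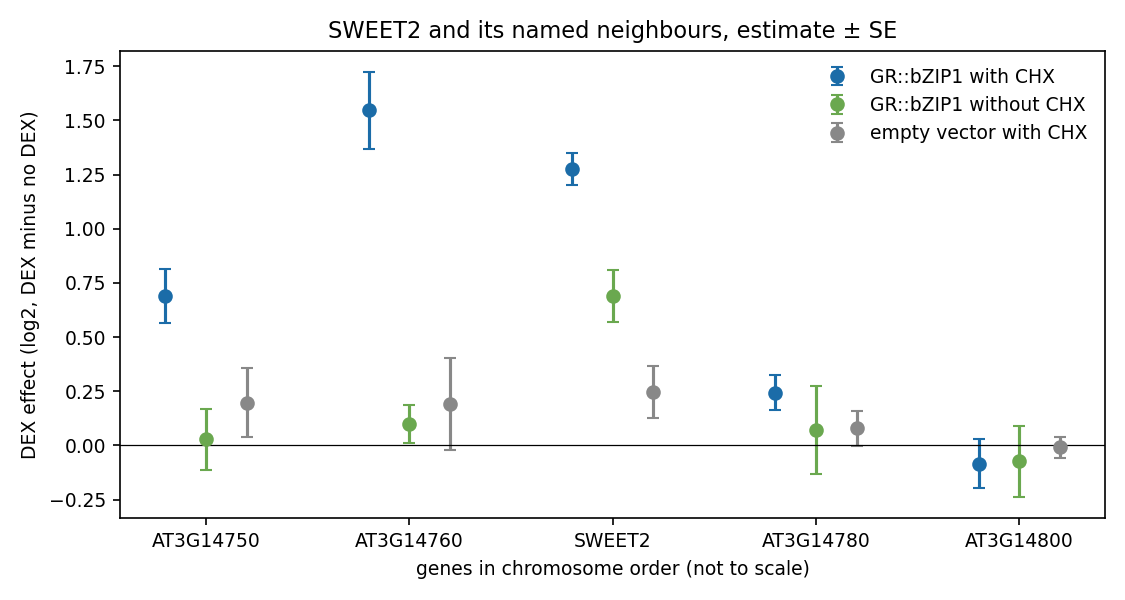
DEX effect (log2, DEX minus no DEX) of SWEET2 and its 4 named neighbours in chromosome order, in the 3 arms, as limma estimate ± SE. In bZIP1 with CHX the effect is 0.69, 1.55 and 1.28 for AT3G14750, AT3G14760 and SWEET2, and 0.24 and -0.08 for the genes after it. Without CHX SWEET2 is at 0.69 and the other 4 genes lie between -0.07 and 0.10.

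Of 11 listed carriers of the tonoplast and of related families outside the SWEET genes, 6 were named. SFP1, of the ERD6-like family of sugar carriers, rose with DEX in bZIP1 with CHX by 0.28 ± 0.06 (SE, limma adjusted p = 0.00546), and 5 of 10 alternatives lost the call (adjusted p of 0.0033 to 0.723). Its DEX effect in the empty vector was 0.32 ± 0.08 and did not pass (adjusted p = 0.18). TMT1, which loads sugar into the vacuole, had a DEX effect of 0.21 ± 0.07 (adjusted p = 0.107) and TMT2 one of -0.03 ± 0.07. So 1 of 6 rose and 0 fell in this arm, beside 3.19% and 2.97% of all probe sets, with a median of 0.02. By limma 0 of 6 were called for DEX in bZIP1 without CHX and in the empty vector, beside 4.29% and 1.05% of all probe sets, with 1 at an unadjusted p under 0.05 in each.

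Genes of sugar use followed next on the list. AT1G62660, a vacuolar invertase that splits sucrose, rose with DEX by 0.43 ± 0.09 (SE, limma adjusted p = 0.0043) in bZIP1 with CHX and by 0.51 ± 0.04 (adjusted p = 0.000282) without CHX. Its effect in the empty vector was 0.06 ± 0.21. The first call was lost in 5 of 10 alternatives (adjusted p of 0.00147 to 0.583) and the second in 1 of 6, without replicate 2 (adjusted p = 0.0527, range 0.000164 to 0.0527). AT2G31390, a fructokinase, rose by 0.33 ± 0.09 (adjusted p = 0.029) with CHX and by 0.22 ± 0.03 (adjusted p = 0.00849) without CHX, lost in 6 of 10 and 3 of 6 alternatives, with an adjusted p of up to 0.572 and 0.185. Both also rose with N in bZIP1 with CHX, by 0.46 ± 0.09 (adjusted p = 0.0104) and 0.37 ± 0.09 (adjusted p = 0.0369), lost in 7 and 6 of 10 alternatives, with an adjusted p of up to 0.72 and 0.724. Of the 2 invertases named of 17 listed, 1 rose with DEX in each bZIP1 arm, and of the 6 hexokinases and fructokinases of 13, 1 rose in each. The share of all probe sets called higher was 3.19% with CHX and 1.84% without CHX. For the difference in DEX effect between bZIP1 and the empty vector, both with CHX, limma called 0 of the 2 invertases, at 0.34 and 0.38. It also called 0 of the 6 hexokinases and fructokinases, beside 4.53% of all probe sets.

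Carriers that work by proton coupling were not called for DEX in any arm by limma, with 0 of the 4 STP hexose symporters and 0 of the 2 polyol transporters at an unadjusted p under 0.05, beside 6.16%, 4.29% and 1.05% of all probe sets called. Most of these genes lay at the bottom of the scale, where a gene can hardly be called. The STP genes were within 0.1 log2 of the lowest value on 47, 45, 45 and 31 of 47 arrays, and the polyol genes on 32 and 11. Of 15 listed genes of sugar starvation, 1 was named, AT3G15450, which is induced when sugar is short. It rose with DEX in bZIP1 with CHX by 0.32 ± 0.07 (SE, limma adjusted p = 0.00816), against -0.11 ± 0.11 in the empty vector, a difference of 0.43 ± 0.13 (adjusted p = 0.0396). These calls were lost in 7 and 6 of 10 alternatives, with an adjusted p of up to 0.498 and 0.511. Of 9 listed bZIP genes of groups C and S1, 2 were named. These genes, bZIP44 and BZIP53, of the same S1 group as bZIP1, fell with DEX in bZIP1 with CHX by 0.59 and 0.18 on the log2 scale (SE 0.17 and 0.04, adjusted p = 0.0442 and 0.00167), beside 2.97% of all probe sets called lower. They lost the call in 8 and 5 of 10 alternatives, with an adjusted p of up to 0.634 and 0.31. Empty-vector cells gave 0.06 for bZIP44 and -0.13 for BZIP53. The DEX effects thus differed between bZIP1 and the empty vector, both with CHX, by -0.65 for bZIP44 and by only -0.05 for BZIP53. By limma 0 of the 2 were called for that difference, and 0 for DEX in the empty vector or in bZIP1 without CHX.

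The nitrogen treatment could be checked on 1 of 15 listed nitrate response genes. AT1G68670, a gene of the HHO family of nitrate-responsive regulators, rose with N in bZIP1 with CHX by 0.57 ± 0.07 (SE, limma adjusted p = 0.000152), lost in 4 of 10 alternatives with an adjusted p of up to 0.146. Its N effect was 0.32 ± 0.11 in bZIP1 without CHX and 0.60 ± 0.09 in the empty vector, neither of which passed (adjusted p = 0.562 and 0.0774). SWEET2 had an N effect of 0.14, 0.04 and 0.07 on the same arrays.

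The genes most like SWEET2 were found by Pearson's r over the 47 arrays, each probe set centred on the mean of its arm, or of its Biorep in bZIP1 with CHX. The search covered 507 named genes whose group means spanned at least 1 log2 unit within an arm. The 8 highest were AT1G67480 (r = 0.93), a kelch repeat F-box protein, AT5G08350 (0.93), a GRAM domain protein, AT1G54740 (0.92), AT1G11380 (0.92), GAT1_2.1 (0.90), a glutamine amidotransferase-like protein, AT1G69570 (0.90), a Dof transcription factor, AT2G24130 (0.89), a receptor-like kinase, and AT2G20670 (0.89). The same 8 genes held the first 8 places by Spearman's rho, which ranged from 0.91 to 0.94. Over the 12 group means, AT1G11380 was nearest (0.99) and GAT1_2.1 stood at place 21 (0.92). These points share arrays and treatments, so the values describe likeness and carry no p.

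The choice rests on all 47 arrays, of which 24 and 12 are of bZIP1 with and without CHX. Within the empty vector, over 11 arrays, r ran from -0.20 for AT1G54740 to 0.65 for AT5G08350, and it was 0.52 for AT1G11380, 0.51 for AT2G20670 and 0.40 for AT2G24130. The 8 genes had DEX effects of 1.13 (AT1G11380) to 4.54 (AT5G08350) in bZIP1 with CHX, 0.66 (AT1G11380) to 3.19 (AT5G08350) without CHX, and -0.25 (AT1G54740) to 0.22 (AT5G08350) in the empty vector. GAT1_2.1 had near equal effects in the bZIP1 arms, 1.67 ± 0.12 (SE) with CHX and 1.70 ± 0.10 without, while AT1G67480 had 1.88 ± 0.08 with CHX and 0.83 ± 0.08 without. SWEET2 had 1.28 with CHX and 0.69 without. These genes were chosen for their likeness to SWEET2, so their effects are a description.

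At the other end stood DGL (r = -0.82), a lipase gene related to jasmonate synthesis, AT3G14360 (-0.76), a lipase-like protein, and AT2G34930 (-0.74), a leucine-rich repeat protein. Within bZIP1 with CHX, bZIP1 without CHX and the empty vector, r was -0.95, -0.32 and 0.02 for DGL. It was -0.82, -0.66 and -0.38 for AT3G14360, and -0.85, 0.45 and -0.43 for AT2G34930. DGL and AT2G34930 barely varied in bZIP1 without CHX, so their r in that arm rests on small differences on a few arrays. Over the 12 group means AT3G14360 was lowest of the 507, with DGL at place 489 and AT2G34930 at place 494. DGL had a DEX effect of -2.01 ± 0.14 (SE) in bZIP1 with CHX, -0.01 ± 0.01 without CHX and -0.66 ± 0.15 in the empty vector. AT3G14360 had -0.92 ± 0.11, -0.39 ± 0.11 and -0.32 ± 0.19 in the same order. AT2G34930 had -0.94 ± 0.10, 0.03 ± 0.02 and -0.40 ± 0.16. For the neighbours of SWEET2, r was 0.64 for AT3G14760, 0.55 for AT3G14750, 0.37 for AT3G14780 and -0.17 for AT3G14800.

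**Figure D4:**
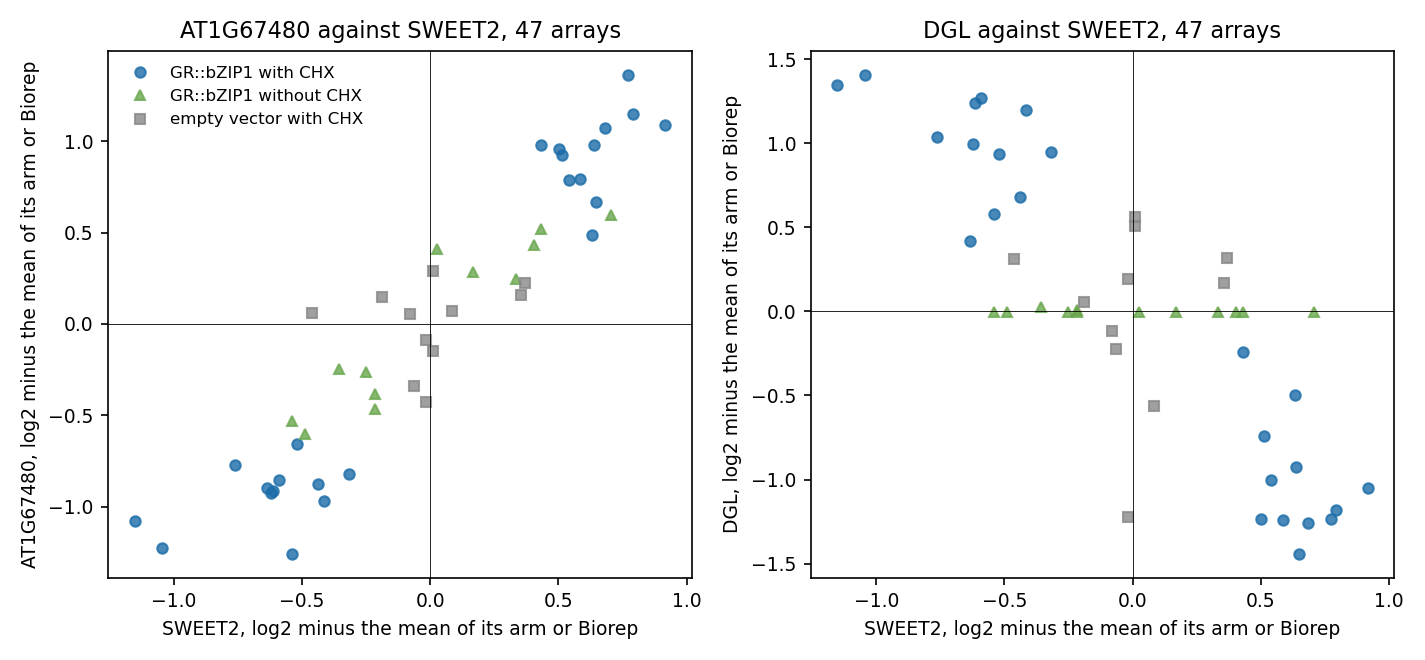
Levels of AT1G67480 (left) and DGL (right) against SWEET2 on the 47 arrays, each in log2 units minus the mean of its arm or Biorep. Points are arrays, and Pearson's r is 0.93 on the left and -0.82 on the right. Arrays of bZIP1 with CHX fall into separate sets at both ends, those of the empty vector lie near the centre on the left but run from -1.22 to 0.56 for DGL on the right, and DGL barely varies without CHX.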

How the data were processed

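The authors deposited log2 values made with GCRMA, per the submitters' processing notes, which give no version, and the log2 scale was read from the values. Lowest values that differ between arms were taken as a sign of separate runs. Of 22810 probe sets, 64 controls were left out. Groups came from the labels. limma 3.58.1 (lmFit, eBayes, two-sided) in R 4.3.3 was fitted on each arm, with Biorep as a covariate in bZIP1 with CHX, and on all 47 arrays for differences between arms. P-values were Benjamini-Hochberg adjusted over 22746 probe sets, and 11 such results were computed. The fits were tested on simulated data. Arrays hold no counts, so their number limits the precision.

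The members and gene lists were chosen with earlier results of these data known. A table matched 13436 probe sets to 1 locus of TAIR10.1 and left 9310 unnamed. It gives 13513 probe sets 1 symbol, 503 several and 8730 none. Of 156 listed loci, 42 were named. The sucrose symporter list (9 genes) had none named, and ATSPS4F, the 1 sucrose synthesis gene named of 10, was not called in any result. Genes are named where they passed in a result, belong to the SWEET family, are the 2 nearest named neighbours on each side, or have the 8 highest or 3 lowest r to SWEET2. Other list members are named as examples after their values were seen.

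Replicate numbers were not used as pairs. After removal of group means, same-numbered arrays correlated above 0.1 in 16 of 36 pairs of bZIP1 with CHX, 14 of 18 without CHX and 8 of 15 of the empty vector. Alternatives were a filter on low values, quantile normalization, a replicate block, leaving out each replicate number, no Biorep covariate, averaged replicates and each Biorep alone. No protein, promoter or probe sequence was used here.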

Additional observations from a re-analysis of the deposited data

Results flagged for a closer look

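SWEET17 read 6.95 on its highest array of bZIP1 with CHX, N and DEX, far from the other 5 arrays. SWEET1 read 3.09 on its lowest array of the same group, likewise apart. These came from 28 sets of 6 arrays (7 genes in 4 groups), and chance marks about 1 in 20 such sets. Of the listed genes, AT3G15450 had a larger DEX effect in bZIP1 with CHX than in the empty vector with CHX, by 0.43 ± 0.13 (SE, limma adjusted p = 0.0396). AT3G14760, the neighbour of SWEET2, differed by 1.36 from the empty vector and by 1.45 from bZIP1 without CHX (limma adjusted p = 0.000976 and 0.000325), where it lay at the lowest value on 11 of 12 arrays.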

How the results depend on the processing

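Of 75 values of SWEET2 under alternatives, 73 moved by less than the spread between arrays (SD of 0.16 to 0.21). Some could not move by design. In the bZIP1 arms the replicate block gives the main estimate, as do averaged replicates and no Biorep covariate with CHX. The SE of the DEX effect with CHX was 0.07 in the main fit and 0.28 with no Biorep covariate. SWEET2 kept a DEX effect between 1.12 and 1.43 in bZIP1 with CHX, 0.59 and 0.84 without CHX, and 0.14 and 0.40 in the empty vector. Its interaction in the empty vector ran from 0.0062 to 0.37 when a replicate was left out, and its difference in DEX effect between the bZIP1 arms was 0.34 after quantile normalization. Counts of called probe sets were less stable, and 50 of 86 moved by over 1.5 times. For DEX in bZIP1 with CHX, 1401 became 726 with no Biorep covariate, 174 with averaged replicates, 706 and 384 in Biorep 1 and Biorep 2 alone, and 771 to 885 with a replicate left out. For N there, 459 became 95, 6, 29 and 24, and 69 to 138. The interaction there gave 0, and 1 in Biorep 1 alone. Without CHX, DEX gave 975, against 1605 with the filter and 199 to 313 with a replicate left out. N gave 20, against 98 and 5 to 7. The interaction gave 0, against 1 after quantile normalization and 4 to 8. In the empty vector, DEX gave 238, against 389 with the filter and 8 to 784 with a replicate left out. N gave 37, against 116, 69 with the replicate block, and 6 to 689. The interaction gave 8, against 0 with the filter, 2 after quantile normalization, 1 with the replicate block, and 2 to 584. The difference from the empty vector gave 1031, against 584 with no Biorep covariate, 686 in Biorep 2 alone, and 555 to 934. That between the bZIP1 arms gave 1014, against 537, 647 with averaged replicates, and 509 to 629. Empty-vector fits without replicate 1 or 3 leave 1 array of DEX without N, which is assumed to vary like the other groups. Of 168 single-gene values, 89 kept the call, 79 lost it and 0 reversed. The causes were not tested, other than that leaving out or averaging arrays leaves fewer of them and the filter leaves fewer probe sets.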
